A study of Mus musculus with 12 samples.

Results

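Immediate early genes are the genes a cell transcribes first when it is stimulated. A list of 34 of them was followed in the kidneys of mice given angiotensin II (ANG II), with and without the AT1A angiotensin receptor. The genes were picked by name, under their current symbols or older ones, and all 34 were measured, by 63 of the 34945 probe sets that carry 1 gene symbol, among 18193 genes in all. The list was chosen with earlier results of these data known, so its counts set against all genes are descriptive. Cyr61 appears under its current symbol Ccn1. No filter on low values was applied.

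The study used Affymetrix mouse expression arrays on total RNA of snap-frozen kidneys, 1 array per mouse. All mice were males aged 2.5 months of an F1 cross, C57BL6 X 129/SvEv, and all were on what the labels call an NS diet. There were 4 groups of 3 mice. WT baseline and KO baseline mice were wild-type mice and AGTR1A-KO mice without infusion, and WT ANG II and KO ANG II mice had received 1 ug/kg/min of ANG II for 2 days. A rise, fall or response below is a difference between infused mice and other, uninfused mice. No group is listed with an infusion other than ANG II, so ANG II and the infusion procedure cannot be told apart. The KO mice lack AT1A and still have the separate gene Agtr1b, which encodes the other mouse AT1 receptor. Every value below is a ratio of an array to a probe set's median over the 12 arrays, averaged on the log2 scale over a gene's probe sets and printed back as a ratio. Ratios compare groups for 1 gene. They hold no level, so 2 genes cannot be ranked, and the kidney markers of the tissue label could not be checked as present or absent.

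The promoters of these genes are bound by factors already present in the resting cell, such as SRF with its ternary complex partners and CREB, so that kinase signals switch them on without new protein synthesis. Their messengers are short-lived. Many encode transcription factors of the AP-1, EGR, NR4A and KLF families, and others encode inhibitors that shut the same signals off, such as the MAP kinase phosphatases. Angiotensin II acting on AT1 receptors is among the stimuli known to induce them in vascular and renal cells.

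The clearest feature of the data was the KO baseline group. The median log2 ratio over the 34 genes was 0.56, 0.53 and 0.42 on the 3 KO baseline arrays, against -0.04, -0.10 and -0.10 on the WT baseline arrays, 0.01, 0.05 and -0.02 on the WT ANG II arrays, and -0.07, -0.16 and -0.13 on the KO ANG II arrays. Between 29 and 32 of the 34 genes had a ratio above 1 on each KO baseline array. The count was 16 to 26 on each WT ANG II array, 7 to 13 on each WT baseline array and 5 to 12 on each KO ANG II array. Of all 18193 genes, 7324 to 8177 were above 1 on KO baseline arrays and 8612 to 10062 on the 9 other arrays. The KO baseline group had the highest mean of the 4 groups for 26 genes, the WT ANG II group for 7 and the WT baseline group for 1. The same order was not counted over all genes. The medians of the 3 KO baseline arrays were above those of all 9 other arrays. In whole-kidney RNA, more RNA per cell and more cells of a type that expresses a gene cannot be told apart. Of 10 macrophage markers 9 were also higher in KO at baseline, against 5.13% of all genes, and their part in the result was not tested.

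**Figure D1:**
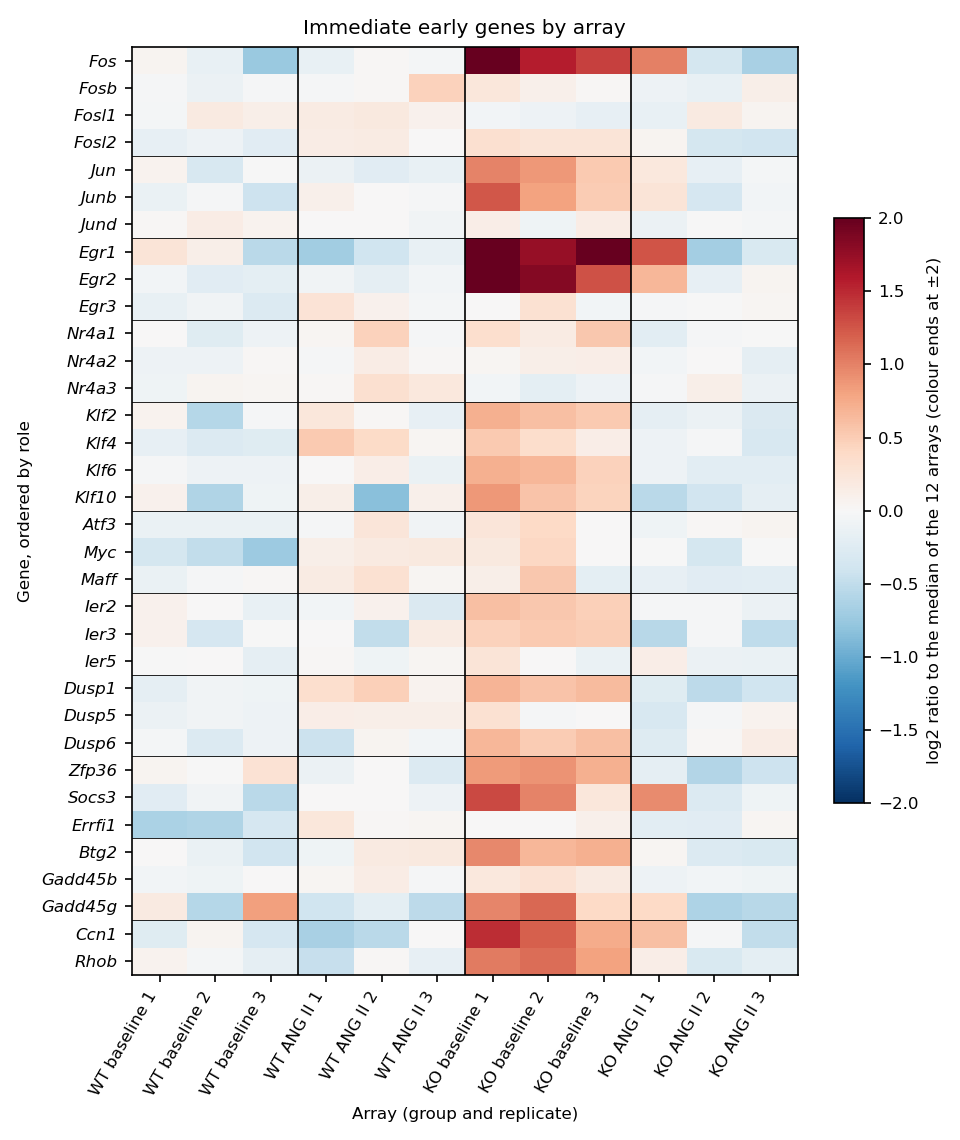
Heat map of the log2 ratio to the median of the 12 arrays for the 34 genes (vertical axis, ordered by role) on each array (horizontal axis, 3 arrays in each of 4 groups divided by black lines), with the colour scale ending at -2 and 2. The 3 KO baseline columns are red for most genes, and KO ANG II replicate 1 is red for Fos, Egr1, Egr2, Socs3 and Ccn1.

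A gene was called changed at a Benjamini-Hochberg adjusted p under 0.05 in a linear model fitted to all 18193 genes and 12 arrays with limma, and errors are moderated standard errors (n = 3 per group throughout). At baseline 22 of the 34 genes were higher in KO than in WT and 0 were lower, against 5.13% of all genes higher and 2.94% lower. In infused against untreated KO mice 20 of the 34 fell and 0 rose. Of all genes 7.00% fell and 5.82% rose. In WT mice 4 rose and 0 fell, with 10.9% of all genes rising and 15.6% falling, so the rising share is close to the background. Quantile normalization of the deposited values moved that background from 1982 genes up and 2839 down to 668 up and 1923 down, and left the count of the 34 at 4 up and 0 down. The median log2 change of the 34 genes was 0.63 for KO minus WT at baseline (-0.04 for all genes), -0.60 for the KO response (0.05 for all genes) and 0.14 for the WT response (0.03 for all genes). The baseline comparison and the KO response share the 3 KO baseline arrays, so one does not support the other.

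Leaving out 1 array at a time left 16 to 24 of the 34 genes higher in KO at baseline, 16 to 21 falling in KO and 3 to 5 rising in WT. Without KO ANG II replicate 1, the array with the highest Fos, Egr1 and Egr2 of its group, 21 fell in KO.

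Promoter sequence was looked at because so many of the genes moved together. RefSeq promoter windows of 300 bases (build GRCm38.p6, 250 bases before to 50 after a transcription start) were at hand for 28 of the 34 genes and for 27025 genes in all. Genes with some of the larger differences, and Errfi1, which behaved differently, are shown, each as the 180 bases that end just before the start, 5′ to 3′ on the gene's own strand. Capitals mark a CArG box, which SRF binds, the cyclic AMP response element TGACGTCA, which CREB binds, the EGR site GCGNGGGCG or the TATA box TATAAA, all searched on both strands. Every stretch shown holds at least 1 of these motifs, so the stretches do not show how common the motifs are. Rhob, Jun and Dusp6, with baseline differences of 1.04, 0.88 and 0.73, had windows without any of them and are not shown.
Fos: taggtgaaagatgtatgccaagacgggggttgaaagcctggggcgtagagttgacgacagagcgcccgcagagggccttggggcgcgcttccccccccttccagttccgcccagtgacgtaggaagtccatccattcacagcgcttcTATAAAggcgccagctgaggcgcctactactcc
Egr2: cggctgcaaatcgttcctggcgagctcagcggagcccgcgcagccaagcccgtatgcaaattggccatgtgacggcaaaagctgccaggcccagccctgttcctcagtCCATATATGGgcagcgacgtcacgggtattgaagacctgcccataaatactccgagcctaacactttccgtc
Zfp36: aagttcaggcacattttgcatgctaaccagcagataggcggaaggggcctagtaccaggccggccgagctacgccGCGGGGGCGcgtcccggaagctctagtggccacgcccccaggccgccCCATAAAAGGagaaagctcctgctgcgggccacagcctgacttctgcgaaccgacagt
Dusp1: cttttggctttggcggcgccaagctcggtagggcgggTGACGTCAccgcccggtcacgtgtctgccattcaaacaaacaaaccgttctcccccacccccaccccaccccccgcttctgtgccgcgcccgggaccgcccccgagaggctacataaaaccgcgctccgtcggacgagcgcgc
Btg2: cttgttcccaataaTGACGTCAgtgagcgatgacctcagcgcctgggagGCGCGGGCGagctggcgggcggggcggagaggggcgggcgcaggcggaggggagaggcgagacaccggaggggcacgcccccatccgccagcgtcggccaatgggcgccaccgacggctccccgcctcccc
Errfi1: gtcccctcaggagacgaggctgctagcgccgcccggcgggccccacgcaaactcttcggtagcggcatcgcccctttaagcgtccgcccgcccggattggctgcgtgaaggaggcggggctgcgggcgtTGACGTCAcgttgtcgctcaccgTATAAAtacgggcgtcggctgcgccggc
The stretches lie at chr12:85473710-85473889, plus strand (Fos), chr10:67537689-67537868, plus strand (Egr2), chr7:28379229-28379408, minus strand (Zfp36), chr17:26508473-26508652, minus strand (Dusp1), chr1:134079156-134079335, minus strand (Btg2) and chr4:150854890-150855069, plus strand (Errfi1). The Fos stretch holds a TATA box, and the Egr2 stretch a CArG box that begins 72 bases before the start. In Zfp36 an EGR site begins 105 bases and a CArG box 58 bases before it. Dusp1 has a cyclic AMP response element 143 bases before its start, Btg2 has one at 166 bases and an EGR site at 131, and Errfi1 has one at 51 bases and a TATA box at 28.

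Across the 28 genes with a window, the EGR site was in 11 (39.3%), against 6.27% of all genes with a window. The cyclic AMP response element was in 4, namely Btg2, Dusp1, Errfi1 and Maff (14.3%, against 2.03%), and the CArG box in 3, namely Dusp5, Egr2 and Zfp36 (10.7%, against 1.81%). The TATA box was in 7 (25.0%, against 15.7%). The AP-1 site TGANTCA was in 0 of the 28, against 8.97% of all genes, which says only that these letters are not in this window. No pair of these motifs shares bases in the stretches shown. The median G and C content was 63.0% over the 35 windows of these 28 genes, some of which have more than 1 start, and 52.7% over all 32851 windows, and its part in the count of the G-rich EGR site was not tested. A match is a description of the letters and not evidence of binding.

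The FOS and JUN proteins pair to form the transcription factor AP-1, and 4 of the 7 genes of these families were higher in untreated KO than in untreated WT kidneys. Fos, the founding member, gave ratios of 1.04, 0.898 and 0.598 in WT baseline kidneys, 0.905, 1.02 and 0.978 in WT ANG II kidneys, 4.24, 2.98 and 2.58 in KO baseline kidneys and 2.02, 0.781 and 0.64 in KO ANG II kidneys. All 3 KO baseline arrays were above every other array, and KO ANG II replicate 1 stood above the other 2 arrays of its group. Fos was 3.88-fold higher in KO than in WT at baseline (1.96 ± 0.34 on the log2 scale, adjusted p = 0.0053) and 3.18-fold lower in infused than in untreated KO kidneys (-1.67 ± 0.34, adjusted p = 0.00984). In WT its change was 0.23 ± 0.34 (adjusted p = 0.633), and it was not called. Without KO ANG II replicate 1 the KO change was -2.18.

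Junb, a JUN protein that often restrains c-Jun, followed Fos at a smaller size. Its ratios were 0.913, 0.986 and 0.749 in WT baseline kidneys, 1.07, 1.01 and 0.987 in WT ANG II kidneys, 2.36, 1.74 and 1.42 in KO baseline kidneys and 1.19, 0.789 and 0.967 in KO ANG II kidneys. The KO baseline arrays were again above all 9 others. Junb was 2.05-fold higher in KO at baseline (1.04 ± 0.18, adjusted p = 0.0044) and fell in KO by 0.89 on the log2 scale (adjusted p = 0.008). Jun, which encodes c-Jun, gave 1.05, 0.798 and 0.997 in WT baseline kidneys, 0.924, 0.856 and 0.9 in WT ANG II kidneys, 1.98, 1.83 and 1.44 in KO baseline kidneys and 1.16, 0.892 and 0.975 in KO ANG II kidneys. The lowest KO baseline array, 1.44, was above the highest array of any other group, 1.16. Jun differed between genotypes at baseline by 0.88 ± 0.13 (adjusted p = 0.00215) and fell in KO by 0.79 (adjusted p = 0.00332).

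Fosl2, a FOS relative without the strong activation domain of Fos, was measured by 2 probe sets that disagreed. The mean of both gave 0.897, 0.934 and 0.853 in WT baseline kidneys, 1.11, 1.12 and 1 in WT ANG II kidneys, 1.25, 1.2 and 1.2 in KO baseline kidneys and 1.04, 0.782 and 0.77 in KO ANG II kidneys. The KO baseline arrays were the highest and KO ANG II replicates 2 and 3 the lowest. Fosl2 was higher in KO at baseline (0.45 ± 0.10, adjusted p = 0.0184) and fell in KO by 0.51 (adjusted p = 0.008). Fitted alone, one probe set fell in KO by 1.12 and the other changed by 0.10 (adjusted p = 0.523), so the gene's calls rest on 1 of 2 probe sets. The baseline call also ended with 1 probe set per gene (adjusted p = 0.567), under quantile normalization (adjusted p = 0.058), when WT baseline replicate 3 was left out (adjusted p = 0.0813) and when KO baseline replicate 1 or 2 was left out (adjusted p of 0.0637 and 0.0601).

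Fosb, Fosl1 and Jund were not called in any comparison. Their log2 changes ran from -0.17 (Fosb) to 0.13 (Fosl1) in the KO response and from -0.19 (Fosl1) to 0.17 (Fosb) for KO minus WT at baseline. Jund, known as the JUN gene with steady expression, had a baseline difference of -0.02 ± 0.07 (adjusted p = 0.882). The AP-1 genes were thus split, with Fos, Fosl2, Jun and Junb called and Fosb, Fosl1 and Jund not.

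The EGR genes encode zinc finger factors that turn growth signals into transcription, and Egr1 and Egr2 held the largest baseline differences of the list together with Fos. Egr1 gave ratios of 1.19, 1.09 and 0.69 in WT baseline kidneys, 0.616, 0.759 and 0.905 in WT ANG II kidneys, 4.86, 3.36 and 5.14 in KO baseline kidneys and 2.38, 0.624 and 0.806 in KO ANG II kidneys. Untreated KO kidneys lay between 3.36 and 5.14, and no other array passed 2.38, which was KO ANG II replicate 1. Egr1 was 4.53-fold higher in KO at baseline (2.18 ± 0.39, adjusted p = 0.00573) and 4.12-fold lower after infusion of KO mice (-2.04 ± 0.39, adjusted p = 0.00665). The baseline call ended under quantile normalization (adjusted p = 0.0503). Without KO ANG II replicate 1 the KO change of Egr1 was -2.63.

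Egr2, whose promoter holds the CArG box shown above, gave 0.962, 0.855 and 0.877 in WT baseline kidneys, 0.952, 0.887 and 0.96 in WT ANG II kidneys, 4.43, 3.56 and 2.42 in KO baseline kidneys and 1.59, 0.896 and 1.04 in KO ANG II kidneys. The 6 WT arrays all lay between 0.855 and 0.962, while the KO baseline arrays lay between 2.42 and 4.43. Egr2 was 3.75-fold higher in KO at baseline (1.91 ± 0.21, adjusted p = 0.000398) and fell in KO by 1.56 (adjusted p = 0.00109), and both its probe sets were called on their own in each of these comparisons. Egr3 was not called, with a baseline difference of 0.24 ± 0.10 (adjusted p = 0.153). Its 2 probe sets went opposite ways at baseline, 0.74 (adjusted p = 0.0328) and -0.25 (adjusted p = 0.174).

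The NR4A genes encode orphan nuclear receptors that respond to calcium and cyclic AMP signals, and their changes were small. Nr4a1 gave 1, 0.841 and 0.933 in WT baseline kidneys, 1.03, 1.38 and 0.98 in WT ANG II kidneys, 1.26, 1.12 and 1.46 in KO baseline kidneys and 0.864, 0.984 and 0.996 in KO ANG II kidneys. Its KO ANG II arrays were below its KO baseline arrays, but WT ANG II replicate 2 reached the KO baseline range. Nr4a1 was higher in KO at baseline (0.46 ± 0.13, adjusted p = 0.0491), a call at the edge of the threshold that ended with 1 probe set per gene (adjusted p = 0.0549), with a variance trend (adjusted p = 0.0531) and when WT baseline replicate 1, 2 or 3, WT ANG II replicate 1, KO baseline replicate 1, 2 or 3 or KO ANG II replicate 1, 2 or 3 was left out (adjusted p from 0.0516 to 0.155). Its change in KO, -0.43 ± 0.13 (adjusted p = 0.0503), was not called. Nr4a2 and Nr4a3 were called in no comparison, with KO changes of -0.17 ± 0.07 and 0.12 ± 0.09. The 6 probe sets of Nr4a2 disagreed in KO, where 3 fell and 1 rose when each was tested alone.

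All 4 Krüppel-like factors of the list were higher in untreated KO kidneys and fell with the infusion. Klf6, which is induced by injury and growth factors, gave 0.983, 0.929 and 0.935 in WT baseline kidneys, 1.01, 1.1 and 0.908 in WT ANG II kidneys, 1.63, 1.58 and 1.37 in KO baseline kidneys and 0.936, 0.862 and 0.866 in KO ANG II kidneys. The lowest KO baseline array, 1.37, was above the highest other array, 1.10. Klf6 was 1.6-fold higher in KO at baseline (0.68 ± 0.08, adjusted p = 0.000802) and fell by 0.78 in KO (adjusted p = 0.000375), with 4 of its 5 probe sets called lower on their own.

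Klf2, a factor known from endothelium under flow, gave 1.05, 0.673 and 0.984 in WT baseline kidneys, 1.17, 1.02 and 0.892 in WT ANG II kidneys, 1.63, 1.51 and 1.43 in KO baseline kidneys and 0.887, 0.923 and 0.821 in KO ANG II kidneys. The KO baseline arrays were the 3 highest of the 12. It differed by 0.78 ± 0.15 (adjusted p = 0.00706) at baseline and fell by 0.80 in KO (adjusted p = 0.0053). Klf10, a target of TGF-beta signals, gave 1.06, 0.658 and 0.944 in WT baseline kidneys, 1.09, 0.559 and 1.07 in WT ANG II kidneys, 1.82, 1.48 and 1.36 in KO baseline kidneys and 0.69, 0.768 and 0.883 in KO ANG II kidneys. Its spread within groups was wide, with 1 WT ANG II array at 0.559. Klf10 fell in KO by 0.99 (adjusted p = 0.0185) and was higher in KO at baseline (0.83 ± 0.24, adjusted p = 0.049). The KO call ended when KO baseline replicate 1 or 2 was left out (adjusted p of 0.069 and 0.0532) and when KO ANG II replicate 2 was left out (adjusted p = 0.0512), and the baseline call ended under quantile normalization (adjusted p = 0.0665) and when WT baseline replicate 2 or 3, KO baseline replicate 1, 2 or 3 or KO ANG II replicate 1, 2 or 3 was left out (adjusted p from 0.0557 to 0.167).

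Klf4, a factor that slows proliferation of epithelial and smooth muscle cells, changed in both genotypes. Its ratios were 0.897, 0.828 and 0.842 in WT baseline kidneys, 1.44, 1.3 and 1.03 in WT ANG II kidneys, 1.44, 1.27 and 1.1 in KO baseline kidneys and 0.935, 0.986 and 0.802 in KO ANG II kidneys. WT ANG II and KO baseline arrays overlapped, and both groups were above the WT baseline and KO ANG II arrays, none of which passed 0.986. Klf4 rose in WT by 0.54 (adjusted p = 0.00902), fell in KO by 0.48 (adjusted p = 0.029) and was higher in KO at baseline (0.56 ± 0.13, adjusted p = 0.0187). Its 2 probe sets differed, with WT changes of 0.31 and 0.77 and KO changes of -0.71 and -0.25. The WT call ended with 1 probe set per gene (adjusted p = 0.119), the KO call when KO baseline replicate 1 or 2 was left out (adjusted p of 0.105 and 0.0817) and when KO ANG II replicate 3 was left out (adjusted p = 0.112), and the baseline call when WT baseline replicate 2 or 3 or KO baseline replicate 1 or 2 was left out (adjusted p from 0.0607 to 0.0765).

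Of the remaining transcription factors Myc was called, and Atf3 and Maff were not. Myc, which drives growth and ribosome production, gave 0.784, 0.711 and 0.604 in WT baseline kidneys, 1.09, 1.13 and 1.15 in WT ANG II kidneys, 1.14, 1.33 and 1.01 in KO baseline kidneys and 0.994, 0.784 and 0.995 in KO ANG II kidneys. The 3 WT baseline arrays were at or below the lowest of the others, and the WT ANG II and KO baseline arrays overlapped. Myc rose 1.61-fold in infused WT kidneys (0.69 ± 0.12, adjusted p = 0.002) and was 1.66-fold higher in KO than in WT at baseline (0.73 ± 0.12, adjusted p = 0.00432). Its change in KO was -0.33 ± 0.12 (adjusted p = 0.0948). Atf3, a stress-induced member of the ATF family, had a baseline difference of 0.35 ± 0.10 (adjusted p = 0.0512), and Maff, a small MAF protein, one of 0.20 ± 0.14 (adjusted p = 0.399).

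Ier2 and Ier3 name small proteins induced by many stimuli, of which Ier3 is known to affect survival of stressed cells. Ier2 gave 1.06, 1.01 and 0.903 in WT baseline kidneys, 0.96, 1.06 and 0.821 in WT ANG II kidneys, 1.51, 1.45 and 1.39 in KO baseline kidneys and 0.982, 0.988 and 0.925 in KO ANG II kidneys. Its 3 KO baseline arrays were tight and above all others. It was higher in KO at baseline (0.55 ± 0.09, adjusted p = 0.00407) and fell by 0.59 in KO (adjusted p = 0.00256). Ier3 gave 1.06, 0.795 and 0.997 in WT baseline kidneys, 1, 0.713 and 1.12 in WT ANG II kidneys, 1.38, 1.44 and 1.4 in KO baseline kidneys and 0.68, 0.979 and 0.704 in KO ANG II kidneys. Ier3 fell by 0.86 in KO (adjusted p = 0.0082), while its baseline difference of 0.58 ± 0.17 (adjusted p = 0.0561) missed the threshold although the arrays of the groups did not overlap. Ier5 was called nowhere, with a KO change of -0.09 ± 0.10 (adjusted p = 0.595).

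The MAP kinase phosphatases remove phosphate from the kinases that induce them. Dusp1, which acts mainly on p38 and JNK, gave 0.883, 0.952 and 0.943 in WT baseline kidneys, 1.26, 1.39 and 1.05 in WT ANG II kidneys, 1.61, 1.48 and 1.55 in KO baseline kidneys and 0.847, 0.695 and 0.76 in KO ANG II kidneys. The order of the groups was plain on these arrays: KO ANG II lowest, then WT baseline, WT ANG II and KO baseline, with no overlap between neighbours. Dusp1 rose in WT by 0.40 (adjusted p = 0.0117), fell in KO by 1.01 (adjusted p = 0.000252) and was 1.67-fold higher in KO at baseline (0.74 ± 0.10, adjusted p = 0.00127). The WT call ended when WT baseline replicate 1 was left out (adjusted p = 0.0515).

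Dusp6, a cytoplasmic phosphatase that acts on ERK, gave 0.977, 0.828 and 0.933 in WT baseline kidneys, 0.741, 1.04 and 0.959 in WT ANG II kidneys, 1.58, 1.42 and 1.52 in KO baseline kidneys and 0.838, 1.02 and 1.11 in KO ANG II kidneys. KO baseline arrays were again the 3 highest. It was higher in KO at baseline (0.73 ± 0.13, adjusted p = 0.00544) and fell by 0.61 in KO (adjusted p = 0.0106). Dusp5, the nuclear ERK phosphatase, was not called, with a baseline difference of 0.19 ± 0.10 (adjusted p = 0.255). In WT its 3 infused arrays were all above the 3 baseline arrays, but the change of 0.22 ± 0.10 (adjusted p = 0.119) did not pass.

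Other inhibitors of the list act by different routes. Zfp36, which binds AU-rich elements and speeds decay of cytokine and immediate early messengers, gave 1.04, 0.99 and 1.22 in WT baseline kidneys, 0.925, 1.01 and 0.827 in WT ANG II kidneys, 1.81, 1.86 and 1.63 in KO baseline kidneys and 0.88, 0.666 and 0.753 in KO ANG II kidneys. It was 2.32-fold lower in infused than in untreated KO kidneys (-1.21 ± 0.11, adjusted p = 0.000202), and KO baseline arrays, at 1.63 or more, were above all others. The baseline difference of 0.71 ± 0.11 (adjusted p = 0.00301) was called, and that call ended under quantile normalization (adjusted p = 0.0601).

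Errfi1, an inhibitor of the EGF receptor, had a different pattern. Its ratios were 0.644, 0.659 and 0.792 in WT baseline kidneys, 1.17, 1.02 and 1.03 in WT ANG II kidneys, 1, 1.01 and 1.07 in KO baseline kidneys and 0.864, 0.855 and 1.03 in KO ANG II kidneys. The WT baseline arrays were the 3 lowest, and the other groups overlapped. Errfi1 rose 1.54-fold in WT (0.62 ± 0.10, adjusted p = 0.000845), was higher in KO at baseline (0.56 ± 0.10, adjusted p = 0.00471) and changed by -0.17 ± 0.10 (adjusted p = 0.249) in KO, which was not called. Socs3, a brake on JAK and STAT signals, was 2.17-fold higher in KO at baseline (1.12 ± 0.29, adjusted p = 0.0359), from KO arrays of 2.49, 1.99 and 1.17 against WT arrays of 0.858, 0.951 and 0.688. That call ended with 1 probe set per gene (adjusted p = 0.174), under quantile normalization (adjusted p = 0.0712) and when WT baseline replicate 1, 2 or 3 or KO baseline replicate 1 or 2 was left out (adjusted p from 0.0619 to 0.143). Its KO change of -0.64 ± 0.29 (adjusted p = 0.159) was not called, with KO ANG II replicate 1 at 1.92 and the other 2 at 0.828 and 0.947.

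Btg2 and the GADD45 genes act in growth arrest and stress signalling. Btg2, an antiproliferative target of p53, gave 1, 0.915 and 0.766 in WT baseline kidneys, 0.939, 1.13 and 1.14 in WT ANG II kidneys, 1.94, 1.58 and 1.64 in KO baseline kidneys and 1.03, 0.831 and 0.813 in KO ANG II kidneys. The KO baseline arrays lay at 1.58 or more and all others at 1.14 or less. Btg2 was 1.93-fold higher in KO at baseline (0.95 ± 0.12, adjusted p = 0.00114) and fell by 0.95 in KO (adjusted p = 0.000967).

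Gadd45b gave 0.966, 0.946 and 1.01 in WT baseline kidneys, 1.03, 1.11 and 0.988 in WT ANG II kidneys, 1.16, 1.22 and 1.13 in KO baseline kidneys and 0.927, 0.959 and 0.941 in KO ANG II kidneys. It had the smallest of the falls in KO, -0.31 ± 0.06 (adjusted p = 0.00942), and a baseline difference of 0.26 ± 0.06 (adjusted p = 0.0251). The KO call ended with 1 probe set per gene (adjusted p = 0.374), and the baseline call with 1 probe set per gene (adjusted p = 0.935) and when WT baseline replicate 1, 2 or 3 or KO baseline replicate 1 or 2 was left out (adjusted p from 0.053 to 0.112). Gadd45g gave 1.13, 0.671 and 1.76 in WT baseline kidneys, 0.759, 0.874 and 0.699 in WT ANG II kidneys, 1.96, 2.22 and 1.32 in KO baseline kidneys and 1.32, 0.65 and 0.684 in KO ANG II kidneys. Its arrays scattered widely in every group but WT ANG II, and WT baseline ran from 0.671 to 1.76. The fall in KO of 1.10 (adjusted p = 0.0447) was close to the threshold and ended under quantile normalization (adjusted p = 0.174) and when WT baseline replicate 1, WT ANG II replicate 1 or 2, KO baseline replicate 1 or 2 or KO ANG II replicate 2 or 3 was left out (adjusted p from 0.0531 to 0.146).

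Ccn1, a matrix-associated signalling protein, and Rhob, a small GTPase of endosomes and the cytoskeleton, closed the list. Ccn1 gave 0.85, 1.04 and 0.792 in WT baseline kidneys, 0.639, 0.69 and 1.01 in WT ANG II kidneys, 2.78, 2.28 and 1.68 in KO baseline kidneys and 1.51, 0.982 and 0.71 in KO ANG II kidneys. KO baseline arrays were the 3 highest, and KO ANG II replicate 1 came next. Ccn1 was 2.48-fold higher in KO at baseline (1.31 ± 0.26, adjusted p = 0.009) and fell by 1.11 in KO (adjusted p = 0.0158), a call that ended with 1 probe set per gene (adjusted p = 0.0914), under quantile normalization (adjusted p = 0.0557), when KO baseline replicate 1 or 2 was left out (adjusted p of 0.0614 and 0.0561) and when KO ANG II replicate 3 was left out (adjusted p = 0.063). Rhob gave 1.05, 0.978 and 0.882 in WT baseline kidneys, 0.729, 1.02 and 0.893 in WT ANG II kidneys, 2.06, 2.18 and 1.74 in KO baseline kidneys and 1.1, 0.807 and 0.873 in KO ANG II kidneys. Its KO baseline arrays, at 1.74 or more, were well above the other 9, of which the highest was 1.10. Rhob was 2.05-fold higher in KO at baseline (1.04 ± 0.14, adjusted p = 0.00124) and fell by 1.11 in KO (adjusted p = 0.00078).

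**Figure D2:**
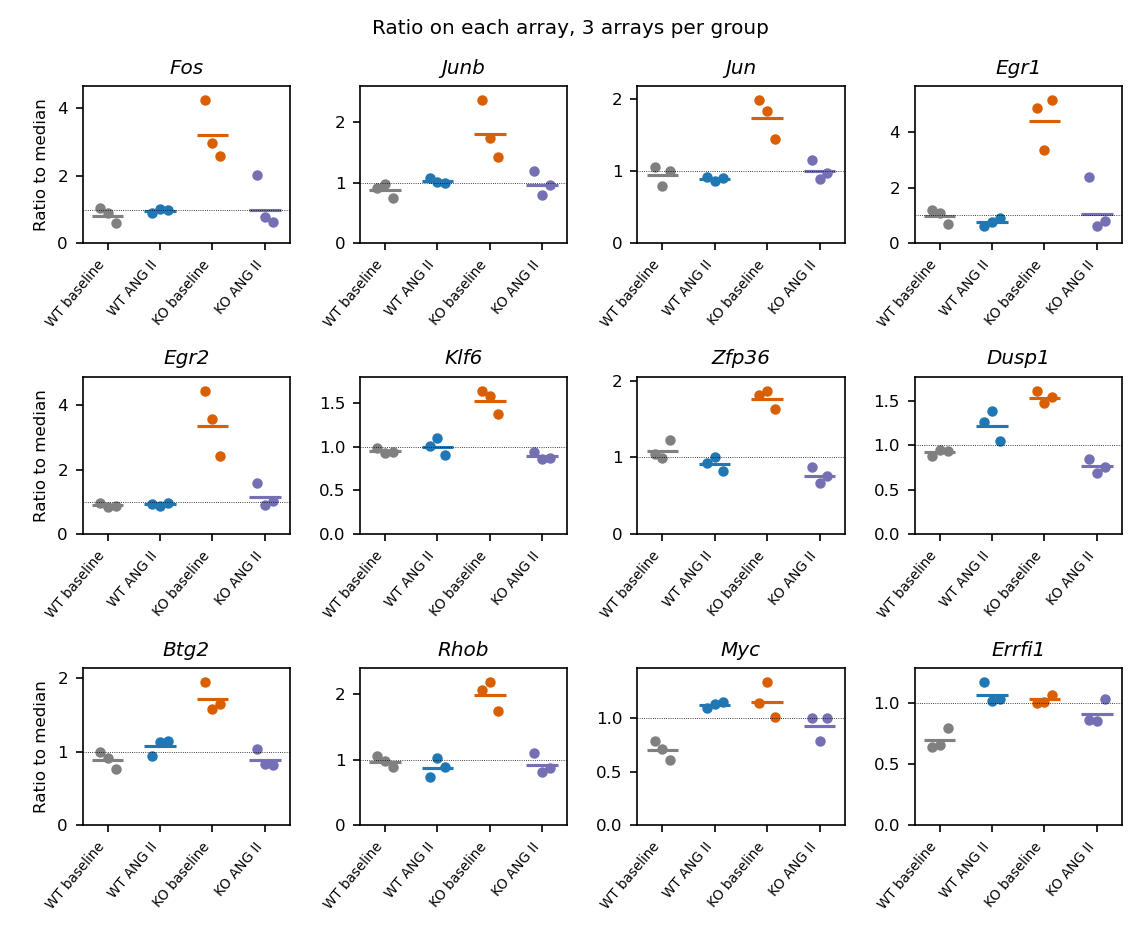
Ratio to the median of the 12 arrays (vertical axis, linear, from 0) on each array for 12 genes, 1 panel per gene, with the 4 groups along the horizontal axis, points for arrays and lines for the geometric mean of each group's 3 arrays. KO baseline arrays stand above the other 3 groups for Fos, Junb, Jun, Egr1, Egr2, Klf6, Zfp36, Dusp1, Btg2 and Rhob, while for Myc and Errfi1 it is the WT baseline arrays that stand low.

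The responses of WT and KO kidneys to the infusion share no arrays, so they could be set side by side. Of the 34 genes 18 fell in KO and were not called in WT, a pattern that 4.84% of all genes had. Dusp1 and Klf4 rose in WT and fell in KO, as did 0.445% of all genes. Myc and Errfi1 rose in WT and were not called in KO, as were 9.22% of all genes, and 12 of the 34 were called in neither, against 65.1% of all genes. The 4 rises in WT had log2 changes of 0.40 to 0.69, and Fos, Egr1 and Egr2 had WT changes of 0.23 ± 0.34, -0.36 ± 0.39 and 0.06 ± 0.21.

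**Figure D3:**
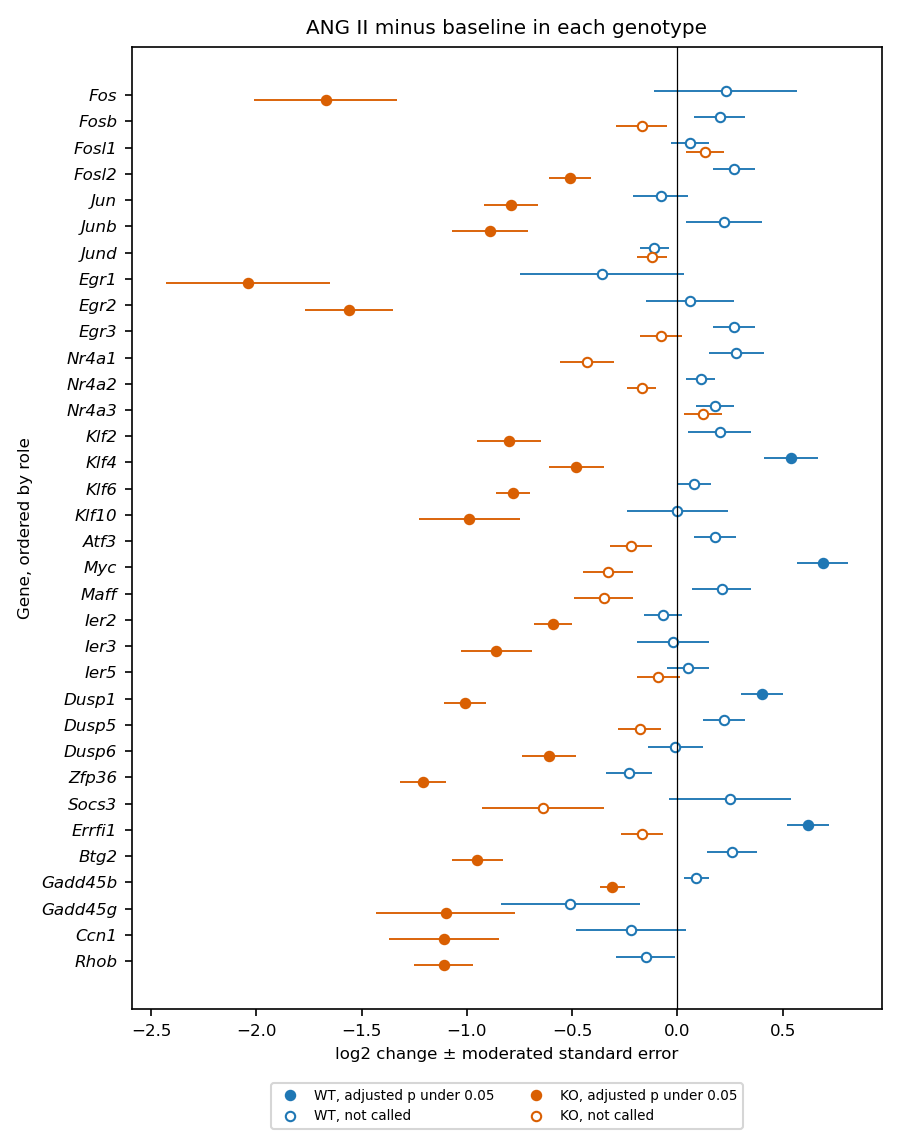
Log2 change of each of the 34 genes with ANG II (horizontal axis, ANG II minus baseline, with moderated standard errors) in WT (blue) and KO (orange), with genes ordered by role on the vertical axis and filled points for an adjusted p under 0.05. The filled KO points run from -2.04 (Egr1) to -0.31 (Gadd45b), and the 4 filled WT points from 0.40 (Dusp1) to 0.69 (Myc).

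The difference between the responses was tested directly. It was lower in KO for 19 of the 34 genes and higher for 0, against 4.12% of all genes lower and 8.86% higher, with a median of -0.79 over the 34 and 0.01 over all genes. Dusp1 had the most certain difference, -1.42 ± 0.14 (adjusted p = 8.14e-05). Fos (-1.90 ± 0.49, adjusted p = 0.0222), Egr2 (-1.62 ± 0.30, adjusted p = 0.00376), Btg2 (-1.21 ± 0.18, adjusted p = 0.000876) and Junb (-1.11 ± 0.25, adjusted p = 0.0115) had the largest others. Klf4 (-1.02 ± 0.18), Myc (-1.02 ± 0.17) and Errfi1 (-0.79 ± 0.14) were also called. Egr1, with -1.68 ± 0.55 (adjusted p = 0.0638), and Klf10, with -0.99 ± 0.33 (adjusted p = 0.0714), did not pass. The difference shares the KO baseline arrays with the baseline comparison and the KO response. Between 13 and 19 of the 34 were called when 1 array was left out, the lowest without KO baseline replicate 1. The call of Fos ended under quantile normalization (adjusted p = 0.0871), when WT baseline replicate 3 was left out (adjusted p = 0.0558), when KO baseline replicate 1 was left out (adjusted p = 0.0587) and when KO ANG II replicate 3 was left out (adjusted p = 0.0531), and that of Dusp6 (adjusted p = 0.0449) in 12 of 19 alternatives, with 1 probe set per gene (adjusted p = 0.0512), under quantile normalization (adjusted p = 0.0886) and when WT baseline replicate 1, 2 or 3, WT ANG II replicate 2 or 3, KO baseline replicate 1, 2 or 3 or KO ANG II replicate 1 or 2 was left out (adjusted p from 0.0579 to 0.101). The call of Jun ended with 1 probe set per gene (adjusted p = 0.0949), under quantile normalization (adjusted p = 0.101) and when WT baseline replicate 2, KO baseline replicate 1 or 2 or KO ANG II replicate 2 or 3 was left out (adjusted p from 0.0527 to 0.0636). That of Ier3 ended under quantile normalization (adjusted p = 0.051) and when WT baseline replicate 2 or 3, WT ANG II replicate 1 or 3, KO baseline replicate 1, 2 or 3 or KO ANG II replicate 1 or 3 was left out (adjusted p from 0.0581 to 0.0933), that of Ier2 when WT baseline replicate 3 was left out (adjusted p = 0.0534), when KO baseline replicate 1 was left out (adjusted p = 0.0544) and when KO ANG II replicate 3 was left out (adjusted p = 0.0558), and that of Nr4a1 when WT baseline replicate 2 or 3, KO baseline replicate 1 or 3 or KO ANG II replicate 1 was left out (adjusted p from 0.0508 to 0.0603). The calls of Fosl2 and Gadd45b each ended in 1 alternative, the use of 1 probe set per gene (adjusted p = 0.78 and 0.432).

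Under ANG II few of the 34 genes were called between the genotypes, and the share called lower was near that of all genes. A gene that was not called is not shown to be equal. The difference was below 0 for 24 of the 34 and above 0 for 10. Of the 34 genes 3 were lower in KO than in WT and 0 were higher, against 10.4% of all genes lower and 15.2% higher (2763 higher and 1888 lower, or 1660 and 645 after quantile normalization), and the median was -0.13 (-0.02 for all genes). The 3 were Dusp1 (-0.68 ± 0.10, adjusted p = 0.000507), Klf4 (-0.46 ± 0.13, adjusted p = 0.0198) and Fosl2 (-0.33 ± 0.10, adjusted p = 0.0305). For Dusp1 the KO ANG II arrays, at 0.695 to 0.847, did not overlap the WT ANG II arrays, at 1.05 to 1.39. The call of Klf4 ended with 1 probe set per gene (adjusted p = 0.0605), when WT ANG II replicate 1 or 2 was left out (adjusted p of 0.0589 and 0.0609) and when KO ANG II replicate 3 was left out (adjusted p = 0.0815), and that of Fosl2 with 1 probe set per gene (adjusted p = 0.184), with only the groups compared (adjusted p = 0.0935), under quantile normalization (adjusted p = 0.0795) and when WT ANG II replicate 1 or 2 or KO ANG II replicate 2 or 3 was left out (adjusted p from 0.0632 to 0.12). Leaving out WT ANG II replicate 2 left 1 call, that of Dusp1. Fos, Egr1 and Egr2 differed by 0.05 ± 0.34, 0.50 ± 0.39 and 0.29 ± 0.21, none of which was called.

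**Figure D4:**
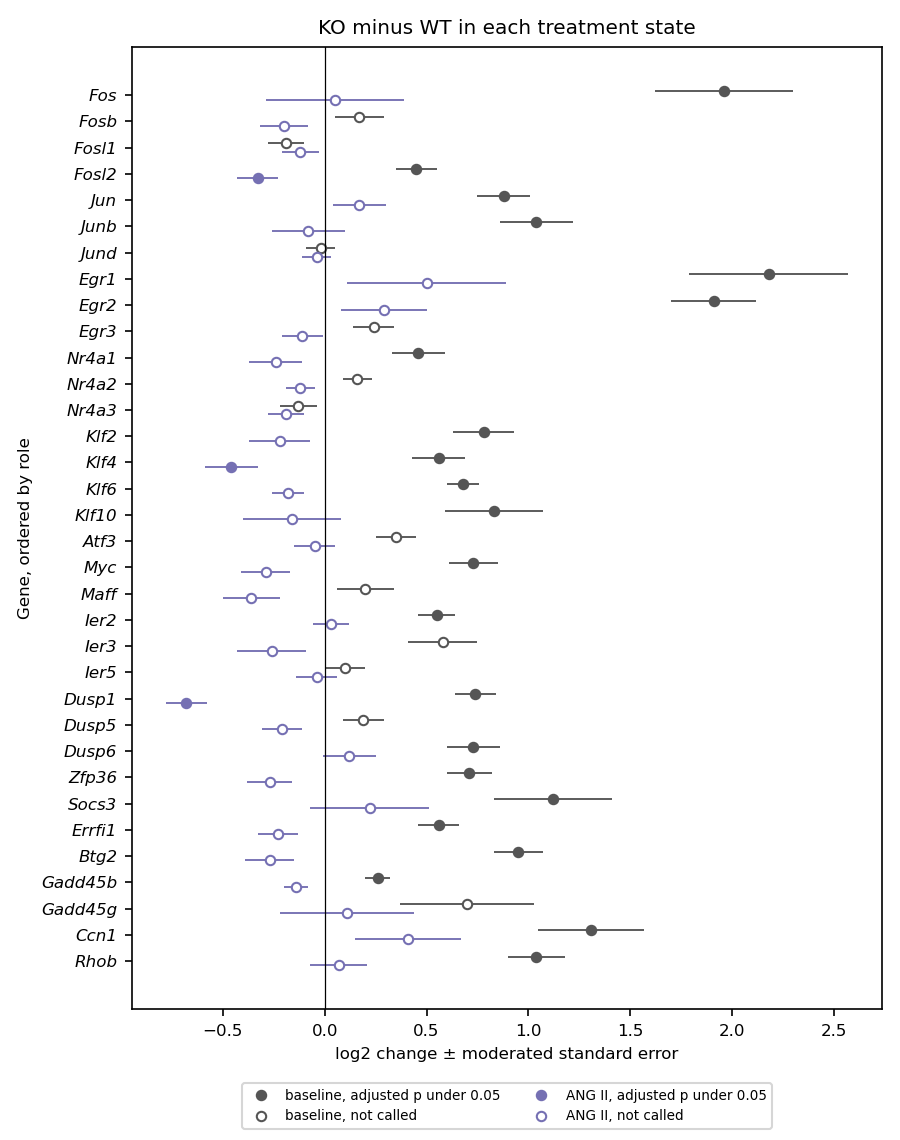
Log2 difference of KO minus WT (horizontal axis, with moderated standard errors) for each of the 34 genes at baseline (grey) and under ANG II (purple), ordered by role on the vertical axis, with filled points for an adjusted p under 0.05. At baseline 22 points are filled, all above 0, and under ANG II the 3 filled points are Fosl2, Klf4 and Dusp1, all below 0.

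The median spread between mice of a group was larger for these genes than for all genes. The median SD of the log2 ratio within a group was 0.121 to 0.171 for the 34 genes, against 0.0809 to 0.113 for all genes, and 20 to 26 of the 34 were above the median of all genes in each group. A median splits all genes evenly, and the counts of 20 in WT ANG II and 22 in WT baseline are not far from an even split. The widest was Egr1 in KO ANG II kidneys, with an SD of 1.03. KO ANG II replicate 1 was the highest array of its group for 16 of the 34 genes, among them Fos, Egr1, Egr2, Junb, Jun, Ccn1 and Socs3. It was the lowest of its group for 10. WT ANG II replicate 2 was the highest of its group for 17 genes and replicate 3 the lowest for 17. Such counts were not made over all genes. KO baseline replicate 1 was the highest of its group for 20 genes and replicate 3 the lowest for 23. Egr1 was an exception, with replicate 3 at 5.14, the highest ratio of the whole list.

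Some genes that did not pass with all arrays passed when 1 array was left out. Without KO ANG II replicate 1, the differences of the responses of Egr1 (-2.26, adjusted p = 0.00164), Ccn1 (-1.18, adjusted p = 0.0317) and Socs3 (-1.27, adjusted p = 0.0275) were called, as was the fall of Socs3 in KO (-1.02, adjusted p = 0.022), the rise of Fosl2 in WT (adjusted p = 0.0143) and the lower Zfp36 in infused KO kidneys (adjusted p = 0.0442). Without KO baseline replicate 3, Atf3 was higher in KO at baseline (adjusted p = 0.0183) and Maff fell in KO (adjusted p = 0.0201), and the differences of Atf3 and Maff passed (adjusted p = 0.0301 and 0.0121). Without WT ANG II replicate 2, which held the lowest Klf10 of all arrays, the difference of Klf10 was -1.31 (adjusted p = 0.00645). Leaving out WT ANG II replicate 2 or 3 also gave calls for Ier3 (adjusted p = 0.0276 and 0.0434) and Atf3 (adjusted p = 0.0359 and 0.0466) at baseline and for Nr4a1 in KO (adjusted p = 0.023 and 0.0413). The other such gains were those of Egr3 and Nr4a3 in WT, of Ier3 at baseline without KO ANG II replicate 2 (adjusted p = 0.0369) and of Nr4a3, Maff and Errfi1 under ANG II, at adjusted p from 0.0163 to 0.0474.

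Probe sets of 1 gene disagreed in some cases. Of the 16 genes with more than 1 probe set, Nr4a2 in the KO response was the only case of probe sets called in opposite directions in any of the 5 comparisons. Jund, not called as a mean, had one probe set that fell in KO by 0.56 (adjusted p = 0.00268) and another at 0.31 (adjusted p = 0.0901). Tested one by one among 45037 probe sets, 36 of the 63 probe sets were higher in KO at baseline and 0 lower (4.87% and 1.65% of all probe sets). In the KO response 33 fell and 2 rose (6.31% and 3.60% of all), and in WT 6 rose and 1 fell (10.9% and 13.3% of all), where the rising share of the 63 is no larger than that of all probe sets.

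Further lists of genes place the genes in their pathway. The background of each count is the share of all genes. At baseline 5.13% of all genes were higher and 2.94% lower in KO. In KO 7.00% fell and 5.82% rose, and in WT 10.9% rose and 15.6% fell. Many of the lists are short, and a count near these shares is no result about a list. Among 38 other rapidly induced genes 16 were higher in KO at baseline and 1 was lower, 13 fell and 1 rose in KO, and 11 rose and 1 fell in WT. In KO the largest changes were those of Ccn2, a relative of Ccn1, which fell by 1.45 (adjusted p = 0.00086), the transcription factor Cebpb, which fell by 0.96, Sgk1, a kinase that stimulates sodium transport, which fell by 0.86, and the kinase Plk3, which fell by 0.82. In WT the transcriptional repressor Nfil3 rose by 1.60 (adjusted p = 0.000181), the cell cycle inhibitor Cdkn1a by 1.29 and Sgk1 by 0.87, and Phlda1 fell by 0.63. The list medians were 0.21 at baseline, -0.15 in KO and 0.14 in WT.

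Of 18 measured upstream kinases and transcription factors, 2 were higher and 0 lower in KO at baseline, Stat3 at 0.40 ± 0.07 (adjusted p = 0.00467) and the SRF cofactor Mrtfa at 0.38 ± 0.07 (adjusted p = 0.00843). In KO 3 fell, the kinase Rps6ka5 by 0.61, Mrtfa by 0.47 and the ternary complex factor Elk3 by 0.37, and Map2k2, an ERK kinase, rose by 0.25. In WT 3 rose and 3 fell, among them Stat3 at 0.31 and Mrtfb at 0.27, and Rps6ka5 at -0.29 and Mrtfa at -0.25. Srf was called in no comparison. Of 14 feedback and output genes of the ERK pathway 1 was higher and 1 lower in KO at baseline, Dusp4 at 0.50 and Dusp14 at -0.49. In KO 1 rose and 1 fell, Dusp14 at 0.44 and Spred1 at -0.24, and in WT 5 rose and 1 fell, led by Dusp2 at 0.41.

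Among 27 ligands and receptors 6 were higher and 1 lower in KO at baseline, led by the oncostatin M receptor Osmr at 0.93 ± 0.14 (adjusted p = 0.00215) and the vasoconstrictor peptide gene Edn1 at 0.86 ± 0.12 (adjusted p = 0.00139). In KO 7 fell and 0 rose, with the PDGF receptor Pdgfra at -0.99, the thrombin receptor F2r at -0.88 and the endothelin receptor Ednrb and the sphingosine receptor S1pr1 both at -0.69, and in WT 4 rose and 3 fell. Of 12 AP-1, ATF and MAF partners 2 were higher in KO at baseline (Jdp2 at 0.30 and Ddit3 at 0.25), 2 fell in KO (Jdp2 and Nfe2l2) and 2 rose in WT (Atf5 and Jdp2). In 31 relatives of the 34 genes that are not usually classed as immediate early, 6 were higher and 2 lower in KO at baseline, 6 fell and 2 rose in KO, and 6 rose and 6 fell in WT. Klf11 had the largest change of them at baseline and in KO, with 0.78 ± 0.09 at baseline, -0.87 ± 0.09 in KO and 0.35 ± 0.09 in WT, followed in KO by Rhou at -0.82 and Zfp36l1 at -0.74.

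Markers of other cell types moved in the same comparisons. The background is again 5.13% of all genes higher and 2.94% lower in KO at baseline, and 7.00% falling and 5.82% rising in KO. Of 10 macrophage markers 9 were higher in KO at baseline and 7 fell in KO, and their mean log2 ratio was 0.79 to 1.41 on KO baseline arrays, -0.43 to 0.02 on WT baseline, -0.72 to -0.35 on WT ANG II and -0.13 to 0.32 on KO ANG II arrays. Fibroblast markers were higher at baseline in 4 of 7 and fell in KO in 3, with mean log2 ratios of 0.39 to 1.12 on KO baseline, -0.43 to 0.16 on WT baseline, -0.91 to -0.32 on WT ANG II and -0.11 to 0.43 on KO ANG II arrays. Of 6 podocyte markers 3 were higher at baseline and 3 fell in KO, of 10 endothelial markers 3 were higher and 4 fell (1 rose), and of 7 vascular smooth muscle markers 2 were higher and 1 fell. On KO baseline arrays the means of these 3 lists were 0.15 to 0.43, 0.25 to 0.31 and 0.10 to 0.64. On the other 9 arrays they ran from -0.23 to 0.09, -0.28 to 0.08 and -0.25 to 0.21. Of the other 11 marker lists 5 had at most 2 markers called at baseline and 6 had 0. In the KO response 5 of the 11 again had at most 2 called and 6 had 0. There 2 markers rose in each of the neutrophil, distal convoluted tubule and adrenal cortex lists. In the principal cell list 2 fell, and in the proximal tubule list 1 rose and 1 fell. Ratios do not show whether a marker is at 0. The part of these cells in the immediate early result was not tested.

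The targeted gene and RNA quality were also read. At baseline the KO kidneys had less Agtr1a than the WT kidneys (-0.49 ± 0.07, adjusted p = 0.00148). Agtr1a fell by 0.48 in infused WT kidneys (adjusted p = 0.000542), and its change in KO was 0.01 ± 0.07 (adjusted p = 0.931). Under ANG II the difference of Agtr1a between the genotypes did not pass the test (adjusted p = 0.975). The sources used here do not say if its probe set lies in the deleted part, and so it may not check the genotype labels. The 3' minus 5' difference of the Actb control probe sets, a relative sign of RNA quality, was -0.0517 to -0.0274 on KO baseline arrays, -0.0253 to 0.0069 on WT baseline, 0.0016 to 0.0345 on KO ANG II and 0.0747 to 0.1502 on WT ANG II arrays (log2). For the Gapdh control probe sets the groups overlapped. In the same order of groups the ranges were -0.053 to 0.0316, -0.0252 to 0.0014, -0.0262 to 0.0204 and -0.0601 to 0.0584. The part of RNA quality in the results was not tested.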

How the data were processed

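Total RNA of 12 kidneys was measured, 3 arrays in each of 4 groups. The deposited values are, per the submitters' processing notes, products of RMA, and they were found to be linear ratios to the median of a probe set over the 12 arrays. This division is not stated. It was read from the values, since 45099 of 45101 medians lay within 0.002 of 1. Depth has no counterpart here, signal over background cannot be read, and the number of arrays limits the precision.

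Here log2 was taken of the deposited ratios, 64 control probe sets were left out, and the probe sets with 1 gene symbol (34945, while 932 had several and 9160 none) were averaged per gene. A model with a mean per group was fitted to 18193 genes with limma 3.58.1 in R 4.3.3, without a variance trend, since ratios keep no intensity (8 residual and 4.732 prior degrees of freedom). The 5 comparisons were two-sided.

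The 34 genes, the 6 other lists and 16 marker lists were chosen with earlier results of these data known. Values on every array are given for the 23 genes called in the difference of responses or among the 12 largest KO changes, and up to 4 called genes of each other list are named. The alternatives were quantile normalization, centring, 1 probe set per gene, each probe set alone, a variance trend, a filter on low spread, fewer groups, a replicate block, array weights and leaving out each array.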

Additional observations from a re-analysis of the deposited data

Results flagged for a closer look

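The response to ANG II differed between the genotypes, by the test of the difference itself, for 19 of the 34 genes, and all 19 responses were lower in KO than in WT. On the log2 scale the KO response minus the WT response was -1.90 for Fos, -1.62 for Egr2, -1.42 for Dusp1, -1.21 for Btg2 and -1.11 for Junb. It was -1.02 for Klf4, -1.02 for Myc, -1.0 for Klf2, -0.98 for Zfp36 and -0.96 for Rhob. It was -0.86 for Klf6, -0.83 for Ier3, -0.79 for Errfi1, -0.78 for Fosl2 and -0.72 for Jun. The smallest were -0.70 for Nr4a1, -0.61 for Dusp6, -0.52 for Ier2 and -0.40 for Gadd45b. Of these, 11 calls held under all 19 alternatives run for this comparison, namely those of Junb, Egr2, Myc, Dusp1, Klf2, Klf4, Klf6, Zfp36, Btg2, Rhob and Errfi1.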

How the results depend on the processing

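The counts of the 34 genes called stayed within 1.5 times the reported count under all alternatives for the WT response, the KO response, the difference and the baseline comparison, over 3 to 6, 16 to 22, 13 to 21 and 16 to 24 genes. For KO minus WT under ANG II, 5 in place of 3 were called with each probe set on its own, and leaving out 1 array gave 1 to 4. Over all genes, the count for the WT response (4821) became 2591 with quantile normalization and 10876 with each probe set, and 2589 to 5472 with 1 array left out (2589 without WT baseline replicate 1, 3184 without WT ANG II replicate 3). For the KO response (2333) it became 3565 with array weights and 4465 with each probe set, and 935 to 2653 with 1 array left out (1352 and 935 without KO ANG II replicates 2 and 3, and 1249, 978 and 1548 without KO baseline replicates 1, 2 and 3). For the difference (2361) it became 4404 with each probe set, and 1485 (without KO ANG II replicate 3) to 2748 with 1 array left out. At baseline (1469) it became 2552 with array weights and 2936 with each probe set, and 570 to 1652 with 1 array left out (749 and 604 without KO baseline replicates 1 and 2, 887 and 570 without WT baseline replicates 2 and 3). Under ANG II (4651) it became 2305 with quantile normalization, 2794 with only the groups compared and 8934 with each probe set, and 2738 to 5428 with 1 array left out (2738 and 2919 without KO ANG II replicates 1 and 3, 3007 without WT ANG II replicate 3). Quantile normalization there gave 1660 higher and 645 lower, against 2763 and 1888. With each probe set the number of tests also grows, to 45037. Otherwise the cause was not tested.

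With 1 probe set per gene, Fosl2 changed sign in KO (0.10) and at baseline (-0.10), and Egr3 (0.38) and Nr4a2 (0.40) were called as rising in KO. The labels do not say that a replicate number is shared between groups, so the numbers were not taken as pairs. The deviations of same-numbered arrays from their group means correlated at -0.146 to 0.287, above 0.1 in 7 of 18 pairs. Those of differently numbered arrays of different groups correlated at -0.366 to 0.25. With the replicate number as a block 19 of the 34 were called in the KO response, 22 at baseline, 19 in the difference, 5 in the WT response and 3 under ANG II. Under the block Gadd45g in KO (adjusted p = 0.0517), Ier3 in the difference (adjusted p = 0.0534) and Nr4a1 at baseline (adjusted p = 0.0675) were not called, while Fosl2 in WT (adjusted p = 0.0488), Klf10 in the difference (adjusted p = 0.0363) and Atf3 at baseline (adjusted p = 0.0361) were. The median change of the 34 genes was -0.63 to -0.47 in KO and 0.52 to 0.69 at baseline over the alternatives. Motif shares were 21.4% in place of 25.0% for the TATA box when bases after the start were left out, and equal for the other 4 motifs.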
